A study of Mus musculus with 2 samples.

Results

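Smooth muscle contractile genes were followed in droplet single-cell RNA sequencing of mouse liver after chronic chemical injury. The members were chosen by symbol: Acta2, Actg2, Myh11, Myl9, Tpm1, Tpm2, Tagln and Cnn1, which are 8 of the 32285 genes counted. The cells were nonparenchymal liver cells, meaning liver cells other than hepatocytes, freshly isolated from mice that received carbon tetrachloride (CCl4), a liver toxin used to produce fibrosis, by intraperitoneal injection for 8 weeks. A single library came from Mfap2+/+ (WT) mice and the other from Mfap2-/- (KO) mice, and both genotypes were injected. The Mfap2 product is a glycoprotein found on microfibrils outside the cell. The allele, the strain, the age and the number of animals per library are not given in the sources used here. Each genotype is 1 library, so genotype, animal and library cannot be told apart, no difference has a replicate check and no p-value is given. Intervals at the 95% level cover counting error only.

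Contraction in smooth muscle is driven by myosin filaments pulling on actin filaments. Acta2 and Actg2 encode the vascular and the enteric smooth muscle actins, Myh11 the smooth muscle myosin heavy chain, and Myl9 a regulatory myosin light chain whose phosphorylation starts contraction. Tropomyosins, encoded by Tpm1 and Tpm2, lie along the actin filament, and Tagln (transgelin) and Cnn1 (calponin) encode actin-binding proteins of the same cells. In injured liver, hepatic stellate cells can turn into myofibroblasts, for which Acta2 is the usual marker, while vessel walls hold true smooth muscle and the portal tract holds fibroblasts. Tpm1, Tpm2 and Myl9 are also known from cells that are not muscle, platelets among them.

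Many smooth muscle genes carry CArG boxes, the motif bound by serum response factor, near their start. The 250 bases before the RefSeq start are shown for Acta2 and Myl9, the members whose promoter, where at hand, held an exact or near match. Both genes stood over 24-fold higher in smooth muscle-like than in stellate-like cells of both libraries, as described below. Cnn1 did too, on few UMIs (279-fold in WT and 621-fold in KO), but its promoter held no match. Those of Tpm1 and Tpm2 held none either. Capitals mark CArG boxes and CArG-like matches, the latter with 1 core letter that is not A or T. The coordinates are on GRCm38.p6: chr19:34255374-34255623 on the minus strand for Acta2 and chr2:156775214-156775463 on the plus strand for Myl9. Both run 5′ to 3′ along the gene's strand.
Acta2: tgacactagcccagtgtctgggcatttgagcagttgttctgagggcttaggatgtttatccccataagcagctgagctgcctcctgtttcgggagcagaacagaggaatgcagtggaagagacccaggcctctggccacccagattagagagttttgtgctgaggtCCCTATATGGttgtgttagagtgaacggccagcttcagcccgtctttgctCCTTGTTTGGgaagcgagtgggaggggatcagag
Myl9: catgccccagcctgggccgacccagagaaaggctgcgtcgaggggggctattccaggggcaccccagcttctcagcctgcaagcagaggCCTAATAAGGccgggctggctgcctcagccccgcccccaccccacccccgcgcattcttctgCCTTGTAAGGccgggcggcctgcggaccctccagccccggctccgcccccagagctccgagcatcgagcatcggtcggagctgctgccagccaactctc
The Acta2 window held CArG-like matches CCCTATATGG, from 84 to 75 bases before the start, and CCTTGTTTGG, from 34 to 25 bases before it. The Myl9 window held a CArG box, CCTAATAAGG, from 161 to 152 bases before the start, and a CArG-like match, CCTTGTAAGG, from 99 to 90. A promoter of 300 bases was at hand for 5 of the 8 members, and 1 of these 5 had a CArG box and 2 had a CArG-like match. Among all 32851 promoters of that length, 1.63% held a CArG box, 8.5% a CArG-like match and 0.679% at least 2 CArG-like matches, with the motif read on both strands. The CArG-like search was added after the Acta2 window gave no exact box. A match describes letters and is not evidence of a bound site. Tagln, Actg2 and Myh11 had no entry in the promoter table.

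Gene positions were read from GENCODE M21 on GRCm38. Acta2 lies at chr19:34241090-34255590, Actg2 at chr6:83512905-83536265, Myh11 at chr16:14194535-14291372, Tpm1 at chr9:67022590-67049406 and Tpm2 at chr4:43514711-43523765, all on the minus strand. Myl9 at chr2:156775420-156781658 and Cnn1 at chr9:22099216-22109630 are on the plus strand. Tagln at chr9:45929619-45936058 on the minus strand overlaps Pcsk7 and Gm48529 on the plus strand, and how the counting used strand is not given in the sources used here.

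The WT library held 11783 barcodes and 82499307 UMIs (unique molecular identifiers, each marking 1 captured RNA molecule), with a median of 4685 per barcode. The KO library held 12872 barcodes, 118226367 UMIs and a median of 6511. After cells with few genes or many mitochondrial UMIs were removed, 11370 WT and 12723 KO cells were kept. The targeted gene Mfap2 had 257 UMIs in kept WT cells and 4 in kept KO cells. Cell types were assigned from lists of marker genes that hold none of the 8 members, so the levels of the members did not enter the assignment. A class name ending in "-like" means that at least 3 of its markers were raised, each at or above its mean share of UMIs over the library. Cells in which a second family of markers reached 50% of the leading one were called mixed and left out of every class (9.93% of kept WT and 12.9% of kept KO cells). The libraries shared 40 barcodes, which included 1 WT and 2 KO mesenchymal-like cells.

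All 8 members were detected in mesenchymal-like cells of both libraries. This class, the fibroblasts, stellate cells and mural cells of the liver, held 272 WT and 285 KO cells, 2.39% and 2.24% of the cells kept. These cells held 38.2% of all UMIs of the summed members in WT (37.4 to 38.9) and 34.6% in KO (33.9 to 35.3). Summed over the 8 members, the level was 1955 CPM (UMIs of the genes per 1000000 UMIs of the cells) in WT and 1549 in KO mesenchymal-like cells. B-like cells, which should lack a smooth muscle programme, showed 44.7 and 35.2 CPM. Mixed cells held another 20.1% of the member UMIs in WT and 20.9% in KO, so where those molecules belong cannot be read from the classes.

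**Figure D1:**
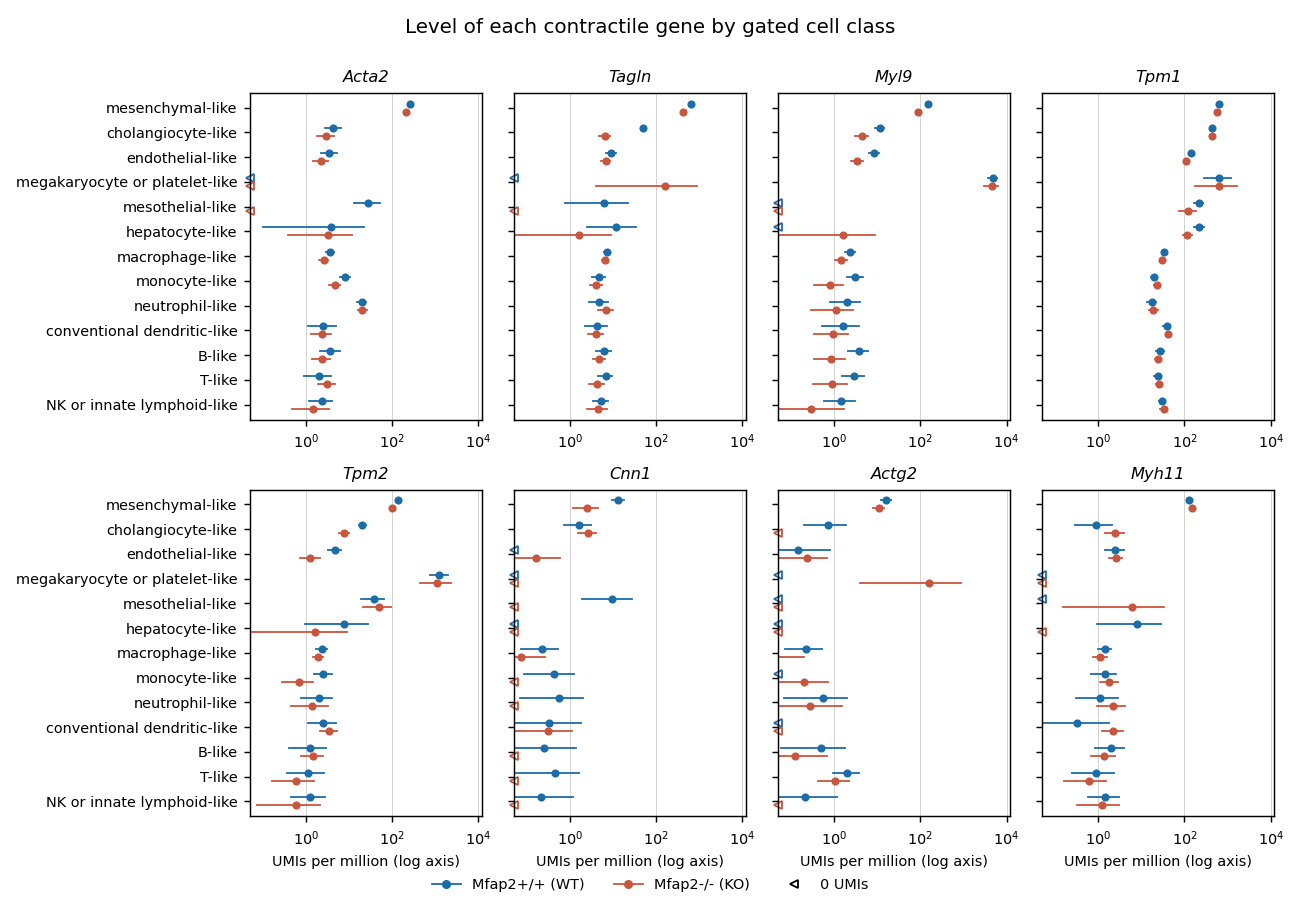
Levels of the 8 members, in CPM on a log scale, in each marker-gated class of the WT and KO library. Mesenchymal-like cells have the highest level of Tagln (629 in WT and 412 in KO), while Tpm1 is also high in cholangiocyte-like cells (430 and 440) and Myl9 in platelet-like cells (4762 and 4481).

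Each gene was counted by its 3′ end, so levels of different genes were compared as molecules with no correction for length. In mesenchymal-like cells the same 2 genes were highest in both libraries, Tagln (629 CPM in WT, 412 in KO) and Tpm1 (622 and 574). They were close in WT, whereas Tpm1 was above Tagln in KO. Acta2 followed with 262 and 212 CPM, then Myl9 (148 and 88.3), Tpm2 (139 and 99.7) and Myh11 (126 and 149). Actg2 (16.0 and 10.9) and Cnn1 (13.3 and 2.48) were the scarcest. Cnn1 rested on 43 UMIs in WT and 10 in KO, and Actg2 on 52 and 44.

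The share of mesenchymal-like cells with at least 1 UMI separated widely detected from rarely detected members. Tpm1 was seen in 85.7% of WT and 82.1% of KO cells, and Tagln in 58.1% and 53.3%. Tpm2 was seen in 54.0% and 48.4%, and Myl9 in 43.0% and 38.6%. Acta2 was present in only 26.8% and 25.3% of the cells despite a higher level than Tpm2 and Myl9. Myh11 was seen in 29.4% of WT and 42.5% of KO cells, whereas the shares of the other members were lower or close in KO. Cnn1 was seen in 8 WT and 5 KO cells, and Actg2 in 12 and 10. B-like cells gave the background: 1.37% and 1.19% for Acta2, 2.28% and 2.43% for Tagln, 0.730% and 0.687% for Myh11, and 9.40% and 11.5% for Tpm1. Median depth was 11689.5 UMIs in WT and 13253 in KO mesenchymal-like cells, against 3371.5 and 4747 in B-like cells. With every cell thinned to 1000 UMIs, Acta2 was seen in 7.66% of WT and 8.37% of KO mesenchymal-like cells and in 0.280% and 0.191% of B-like cells. Thinned Tpm1 shares were 37.1% and 41.4% against 2.89% and 2.48%. Thinned Myh11 shares were 8.47% and 9.89%. Thinning lowers every share, so a smaller gap follows in any case, and the part of depth in it was not tested. Thinning left out 24 WT and 22 KO mesenchymal-like cells and 24 and 31 B-like cells that were shallower.

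Within the mesenchymal-like class, 8 of 8 members in KO and 7 in WT were highest in a small group of smooth muscle-like cells. The exception was Actg2 in WT, at 127 CPM there and 186 in portal fibroblast-like cells, where 1 cell held all 38 of its UMIs. These were the cells in which the vascular smooth muscle list led over the stellate and portal fibroblast lists, 8 in each library, or 2.94% and 2.81% of the class. Stellate-like cells made up 232 WT and 233 KO cells, portal fibroblast-like cells 10 and 8, and 22 and 36 cells had no subset. The smooth muscle list was not particular to the 8 cells, since 3 or more of its markers were raised in many other cells: leaving such cells out kept 136 of 272 WT and 167 of 285 KO cells. Several of its markers differed strongly between the groups. The same list formed the groups, so its single and summed levels describe the gate and are no check of it. Pln, which encodes phospholamban, had 1 UMI in all WT and 1 in all KO stellate-like cells and 7 and 41 in the smooth muscle-like cells. Sncg had 0 and 1 against 19 and 15. Mustn1 and Rasl11a were common in stellate-like cells, at 431 and 241 CPM in WT and 182 and 137 in KO. The summed list reached 3677 CPM in WT and 5626 in KO smooth muscle-like cells, against 864 and 478 in stellate-like cells.

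Acta2 reached 4485 CPM in WT and 5553 in KO smooth muscle-like cells, against 116 and 127 in stellate-like cells. That is 38.6-fold higher in WT (32.9 to 45.3) and 43.8-fold in KO (37.8 to 50.7). For Myh11 the levels were 1712 and 4307 CPM against 55.9 and 92.2, or 30.6-fold and 46.7-fold. Myl9 stood at 2282 and 1686 against 86.9 and 68.5, or 26.3-fold and 24.6-fold. The smooth muscle actin and the myosin heavy chain thus had the largest ratios among the well-counted members of both libraries. Tpm2 was 14.2-fold higher in WT and 27.9-fold in KO, and Tagln 10.6-fold and 11.4-fold. Tpm1 had the smallest ratio, 5.03-fold in WT (4.29 to 5.87) and 7.56-fold in KO (6.54 to 8.69). Cnn1 ratios rested on 2 WT and 1 KO UMIs in stellate-like cells and came to 279 (62.1 to 2568) and 621 (86.0 to 27212). Actg2 ratios were 62.0 (18.9 to 217) and 133 (69.2 to 268), on 6 and 15 stellate-like UMIs. These folds compare cells of 1 library and have no interval over animals.

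**Figure D2:**
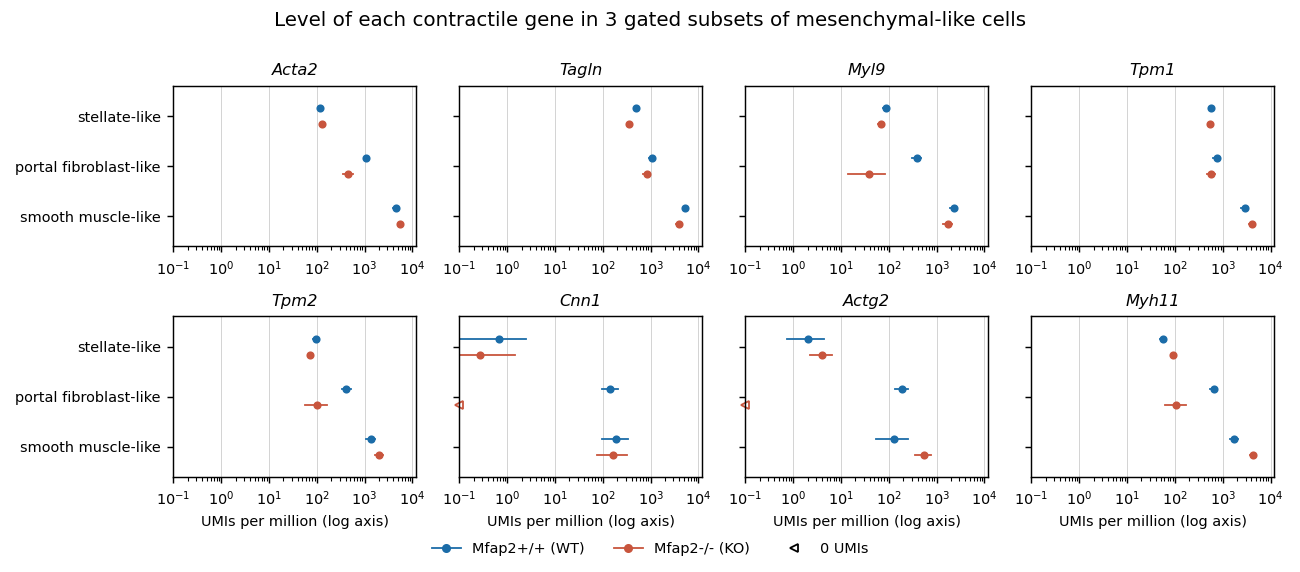
Levels of the 8 members, in CPM on a log scale, in stellate-like, portal fibroblast-like and smooth muscle-like cells of the WT and KO library, with 95% counting intervals. Acta2 lies at 4485 (WT) and 5553 (KO) in smooth muscle-like cells and at 116 and 127 in stellate-like cells, and the gap is narrowest for Tpm1.

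The smooth muscle-like cells were not uniform. Summed over the members, the 8 WT cells held 726, 2891, 17842, 18617, 27617, 33826, 37997 and 39637 CPM. The 8 KO cells held 11055, 16048, 19985, 23026, 25771, 32575, 32814 and 76336. The medians were 23117 and 24398 CPM, and the ranges overlapped. The lowest WT cell had 17909 UMIs in all, no UMI of Acta2, Tagln or Myl9, and 47 UMIs of Dcn and 38 of Col1a1, genes of matrix-producing fibroblasts, so its members go against its subset name. This cell supplied 17909 of the 63094 UMIs of the WT group. Without it the WT levels of the group were 6263 CPM for Acta2, 2346 for Myh11, 3187 for Myl9 and 7436 for Tagln, so the folds over stellate-like cells were 53.9, 42.0, 36.7 and 14.8. The highest KO cell had only 655 UMIs in all. Tpm1 and Tpm2 were seen in all 8 cells of both libraries and Myh11 likewise, whereas Cnn1 was seen in 5 WT and 4 KO cells. In KO, 28 of the 29 Actg2 UMIs came from 1 cell of 8964 UMIs, the richest of the group with 292 member UMIs. It was led by the mesenchymal list and held 159 UMIs of Col1a1 and 4 of Dcn, more Col1a1 than the lowest WT cell. Of the 12 endothelial markers, 6 had no UMI in the WT and 7 none in the KO group. The macrophage list summed to 1014 and 1228 CPM and the B list to 1395 and 1136, and their part in the levels was not tested.

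These few cells held a large part of some members and a small part of others. The 8 smooth muscle-like cells carried 33.4% of the Acta2 UMIs of the class in WT and 35.4% in KO. They carried 26.5% and 39.1% of Myh11, 30% and 25.8% of Myl9, and 18.9% and 27.6% of Tpm2. Their part was 16.5% and 13% for Tagln and 8.98% and 9.45% for Tpm1. Stellate-like cells, by their number, held most of the Tpm1 (83.0% and 86.3%) and Tagln (72.5% and 79.0%) of the class. They also held most of Tpm2 (62% and 68.2%) and Myl9 (53.1% and 72.5%). Their part was 40.2% in WT and 55.8% in KO for Acta2, and 40.2% and 57.7% for Myh11. It was 4.65% and 10% for Cnn1, and 11.5% and 34.1% for Actg2.

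Within stellate-like cells Acta2 was also concentrated. It was seen in 58 of 232 WT cells (25.0%) and 57 of 233 KO cells (24.5%), and the 5 richest cells held 59.5% and 51.4% of its UMIs. Tpm1 was spread, seen in 213 WT and 212 KO stellate-like cells with 10.16% and 10.01% of its UMIs in the 5 richest. Tagln lay between, with 35.1% and 29.0%. Over the whole class, 5 cells held 55.9% of Acta2 in WT and 39.1% in KO, 40.4% and 27.0% of Myl9, and 14.7% and 10.1% of Tpm1. For Cnn1 the 5 richest cells held 90.7% and 100%, and for Actg2 86.5% and 88.6%. Summed over the members, 16 WT and 25 KO cells held 50% of the UMIs, and 24 WT and 33 KO cells held none.

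**Figure D3:**
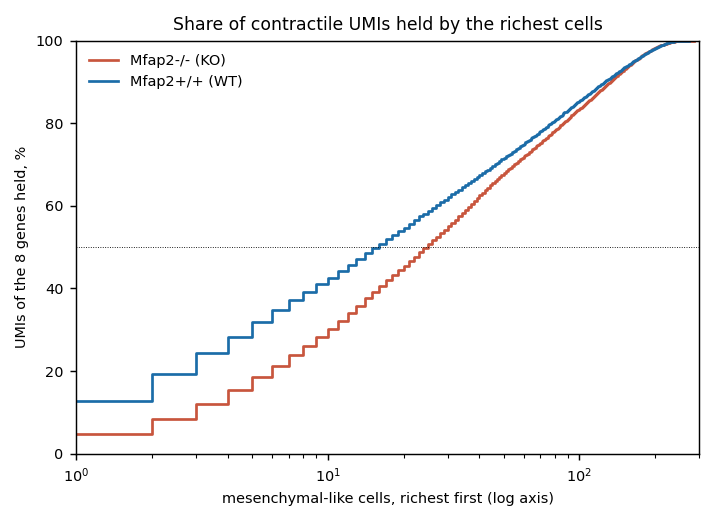
Cumulative share of the summed member UMIs of mesenchymal-like cells against the number of cells, ordered from the richest, in WT and KO. The richest WT cell alone holds 12.8% and the richest KO cell 4.67%, and 5 cells hold 32.0% in WT and 18.4% in KO.

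The richest WT cell weighs on the comparisons of genotypes over the whole class and over portal fibroblast-like cells. It was gated as portal fibroblast-like, had 29209 UMIs and 5839 genes, and 3 smooth muscle markers were raised in it. It held 808 member UMIs, with 199 of Acta2, 170 of Tagln, 133 of Myh11, 112 of Tpm1, 66 of Myl9, 61 of Tpm2, 38 of Actg2 and 29 of Cnn1. At 27663 CPM over the members it lay above the WT smooth muscle-like median of 23117. The other WT portal fibroblast-like cells reached at most 4676 CPM, so its members are unlike those of its subset. Values are therefore also given for WT without this cell. Smooth muscle-like values are likewise given without the WT cell lowest in the members, and without the KO cell richest in them, both described above. These choices were made after the cells' values were seen. Leaving out a low cell raises the summed WT level and leaving out a rich cell lowers the summed KO level by construction. Single members need not follow. Without the KO cell the KO level rose for Tagln (3959 to 4298 CPM), Myl9 (1686 to 1776) and Tpm2 (2034 to 2039). It fell for the other members.

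The KO library was compared with the WT library as the log2 ratio of CPM in mesenchymal-like cells. Past 2-fold lower was 1 of the 8 members, Cnn1, where 1.81% of 12727 genes tested were called, and past 2-fold higher was none, where 5.55% were called. Counting intervals lay wholly below 0 for 6 members (14.3% of all genes) and wholly above 0 for 1, Myh11 (26.8% of all genes). The members' median log2 ratio was -0.51, against 0.13 for all genes tested. In stellate-like cells 4 of the 7 members with enough UMIs had intervals below 0 (14% of 12485 genes) and 1 above (26.7%), and the median was -0.10 against 0.14. Scaling by median of ratios moved every log2 ratio in the class by -0.13.

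**Figure D4:**
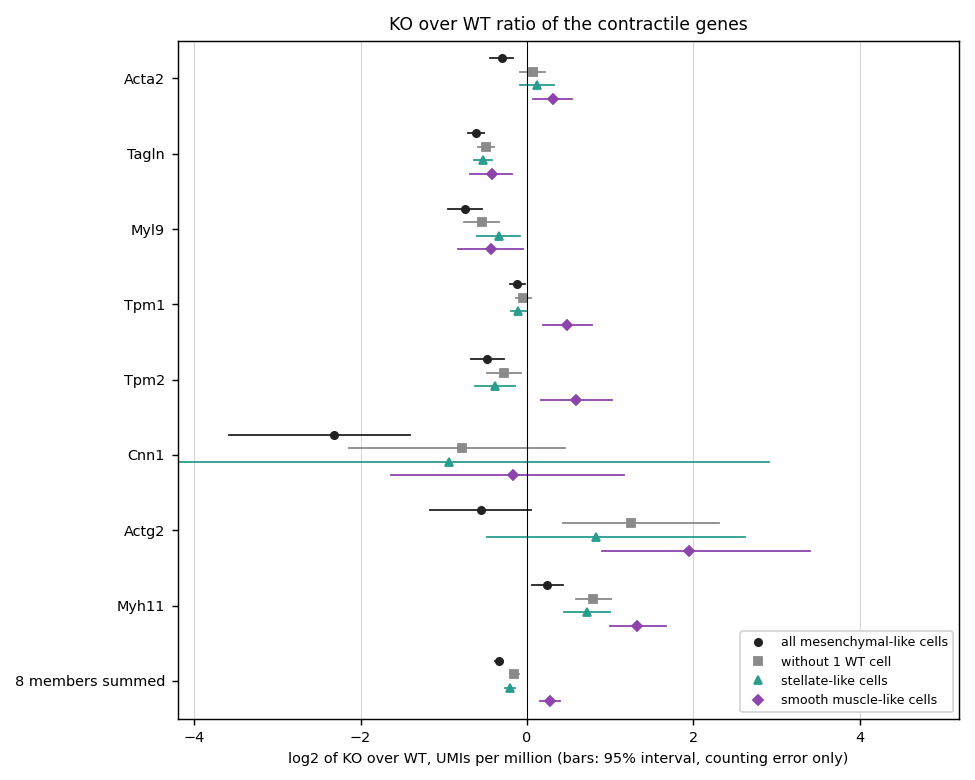
Log2 ratio of KO over WT for each member and for the 8 members summed, with 95% counting intervals that leave out variation between animals. Series are mesenchymal-like cells, the same class without the richest WT cell, stellate-like cells and smooth muscle-like cells. Without that WT cell the class value of Acta2 turns from -0.30 to 0.07 and that of Actg2 from -0.55 to 1.26. Tagln and Myl9 lie below 0 and Myh11 above 0 in every series. Tpm1 and Tpm2 lie below 0 in stellate-like and above 0 in smooth muscle-like cells. Without the lowest WT cell, not drawn, their smooth muscle-like values were 0.08 and 0.13, with intervals that included 0.

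Among the actins, Acta2 had 848 UMIs in WT and 855 in KO mesenchymal-like cells, 262 and 212 CPM, a log2 ratio of -0.30 (-0.44 to -0.16). Its sign depended on 1 cell: without the richest WT cell the WT level was 202 CPM and the ratio 0.07 (-0.08 to 0.22). In stellate-like cells alone, where that cell does not enter, Acta2 stood at 116 in WT and 127 in KO with a ratio of 0.12 (-0.08 to 0.33), not distinguishable at this depth. In smooth muscle-like cells the ratio was 0.31 (0.07 to 0.55), but -0.17 (-0.41 to 0.07) without the lowest WT cell and 0.01 (-0.26 to 0.27) without the richest KO cell, and the medians per cell were 6123 CPM in WT and 5974 in KO. Actg2 had 52 UMIs in WT and 44 in KO, a ratio of -0.55 (-1.17 to 0.05), and without the richest WT cell 14 and 44 UMIs and a ratio of 1.26 (0.43 to 2.31). In smooth muscle-like cells it had 8 UMIs in WT and 29 in KO, a ratio of 1.95 (0.90 to 3.41), and 8 and 1 without the richest KO cell.

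Of the myosin genes, Myh11 was higher and Myl9 lower in KO mesenchymal-like cells. Over all kept cells Myh11 was lower in KO, at 9.32 CPM in WT and 7.41 in KO, a log2 ratio of -0.33 (-0.47 to -0.19), and in mixed cells it was -1.88. Myh11 had 408 UMIs in WT and 601 in KO mesenchymal-like cells, 126 and 149 CPM, a log2 ratio of 0.24 (0.06 to 0.43). Without the richest WT cell the ratio was 0.80 (0.59 to 1.01). In stellate-like cells Myh11 had 164 UMIs in 68 of 232 WT cells and 347 UMIs in 108 of 233 KO cells, 55.9 and 92.2 CPM, a ratio of 0.72 (0.45 to 0.999). The shares with a UMI were 29.3% and 46.4%, and 5.38% and 7.83% after thinning to 1000 UMIs. In smooth muscle-like cells the ratio was 1.32 (0.996 to 1.67), 0.87 (0.54 to 1.22) without the lowest WT cell and 1.29 (0.94 to 1.65) without the richest KO cell, with medians per cell of 2183 CPM in WT and 4171 in KO. With mixed cells put back into the class it was -0.14, and without the smooth muscle-like cells -0.04 (-0.26 to 0.19). Myl9 had 480 UMIs in WT and 356 in KO mesenchymal-like cells, 148 and 88.3 CPM, a ratio of -0.75 (-0.95 to -0.55). Its ratio was -0.34 (-0.60 to -0.09) in stellate-like and -0.43 (-0.83 to -0.05) in smooth muscle-like cells. It was -0.55 in the class without the richest WT cell, and -0.91 in smooth muscle-like cells without the lowest. Without the richest KO cell the interval in smooth muscle-like cells included 0, at -0.35 (-0.77 to 0.04).

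Of the tropomyosins, Tpm1 differed little between libraries over the class. Tpm1 had 2016 UMIs in WT and 2317 in KO mesenchymal-like cells, 622 and 574 CPM, a log2 ratio of -0.11 (-0.20 to -0.03). Without the richest WT cell the interval included 0, at -0.05 (-0.13 to 0.04). Stellate-like cells gave -0.10 (-0.20 to -0.01), whereas smooth muscle-like cells gave 0.48 (0.19 to 0.78), from 2869 CPM in WT to 4014 in KO. That ratio was 0.08 (-0.21 to 0.38) without the lowest WT cell and 0.19 (-0.14 to 0.51) without the richest KO cell. Tpm2 had 450 and 402 UMIs, 139 and 99.7 CPM, a ratio of -0.48 (-0.68 to -0.28). It was lower in KO stellate-like cells, by -0.38 on the log2 scale (-0.63 to -0.14), and higher in KO smooth muscle-like cells, by 0.59 (0.17 to 1.02). Without the lowest WT cell the latter was 0.13 (-0.29 to 0.56). The difference between the groups was not tested.

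Of the actin-binding proteins, Tagln had the best-counted difference. It had 2038 UMIs in WT and 1661 in KO mesenchymal-like cells, 629 and 412 CPM, a log2 ratio of -0.61 (-0.71 to -0.52). Leaving out the richest WT cell gave -0.50. Stellate-like cells showed 503 CPM in WT and 349 in KO, a ratio of -0.53 (-0.64 to -0.42), and smooth muscle-like cells 5325 and 3959, a ratio of -0.43 (-0.68 to -0.18), or -0.91 without the lowest WT cell and -0.31 (-0.57 to -0.05) without the richest KO cell. Tagln and Myl9 were lower in KO under all 13 alternative settings tried, with ratios from -0.74 to -0.04 and from -0.88 to -0.07. Cnn1 had 43 UMIs in WT and 10 in KO, a ratio of -2.32 (-3.58 to -1.40), but 29 of the 43 came from the richest WT cell, and without it the ratio was -0.78 (-2.15 to 0.46).

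Summed over the members, the log2 ratio was -0.34 (-0.39 to -0.29) in mesenchymal-like cells and -0.15 (-0.20 to -0.10) without the richest WT cell. It was -0.20 (-0.26 to -0.14) in stellate-like and 0.28 (0.16 to 0.40) in smooth muscle-like cells, the latter turning to -0.19 (-0.30 to -0.07) without the lowest WT cell. The portal fibroblast-like cells, 10 in WT and 8 in KO, gave 4684 and 2100 CPM and a ratio of -1.15 (-1.34 to -0.98). Without the 1 rich cell the WT level was 846 CPM over 9 cells and the ratio turned to 1.31 (1.03 to 1.60). Fewer cells of a kind and less RNA per cell cannot be told apart in such sums.

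Other genes of the contractile pathway, a list of 40, were read in the same cells. Of the 38 with enough UMIs, 21 were higher and 17 lower in KO mesenchymal-like cells, with 14 intervals above and 14 below 0 and a median log2 ratio of 0.06. Of all 12727 genes tested, 7616 were higher and 5111 lower, with a median of 0.13. Intervals lay above 0 for 26.8% of all genes and below 0 for 14.3%, against 36.8% each way for the pathway genes. Mylk, the kinase that phosphorylates the regulatory light chain, stood at 647 CPM in WT and 783 in KO, a ratio of 0.27. Rock2, a kinase that acts through the myosin phosphatase, was at 382 and 527 (0.46), and Rhoa, the GTPase upstream of it, at 355 and 285 (-0.32). Kinase genes and the GTPase gene therefore lay on opposite sides of 0 over the class. In smooth muscle-like cells Mylk was at 0.52 (0.07 to 0.99), Rock2 at -0.25 (-1.11 to 0.55) and Rhoa at 0.26 (-0.55 to 1.08). Over the class, the cytoplasmic actins Actb (4192 and 2574, -0.70) and Actg1 (735 and 526, -0.48) were lower in KO. So were Myl6, the essential light chain (659 and 527, -0.32), and Tagln2, a transgelin of many cell types (482 and 330, -0.55). In smooth muscle-like cells the ratios of Actb, Actg1, Myl6 and Tagln2 were 0.14, 0.24, 0.23 and 0.03, all with intervals that included 0. Itga8, an integrin subunit, was at 347 and 550 CPM (0.67). Tpm3 was at 499 and 550 (0.14), and Cald1, which encodes caldesmon, at 937 and 973 (0.05, -0.02 to 0.12).

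Outside mesenchymal-like cells, Tpm1 was the most widespread member. Cholangiocyte-like cells, the lining of bile ducts, had 430 CPM in WT and 440 in KO, a log2 ratio of 0.03 (-0.04 to 0.11). Endothelial-like cells had 144 and 109 CPM, a ratio of -0.40 (-0.52 to -0.28). Myl9 in endothelial-like cells was at 8.55 and 3.42 CPM (-1.31, -1.92 to -0.73) and Tpm2 at 4.63 and 1.27 (-1.82, -2.83 to -0.96), so 2 of the 6 members with enough UMIs were past 2-fold lower, where 2.38% of 14019 genes tested were. In B-like cells Myl9 was at 3.70 and 0.852 CPM, also lower in KO, and Tpm2 at 1.23 and 1.46, and the part of RNA from other cells was not tested. Tagln in cholangiocyte-like cells was at 49.9 and 6.37 CPM, but 90.6% of the WT UMIs were in 5 cells. With Myl9 (-1.35) and Tpm2 (-1.37), 3 of 7 members were past 2-fold lower there, where 1.34% of 13765 genes were called. Tpm2 also rested on few cells, with 80.5% of its WT and 83.6% of its KO UMIs in 5. Past 2-fold higher was 1 of 7, Myh11, with 5 UMIs in WT and 17 in KO and a ratio of 1.24 (-0.08 to 3.21), where 6.63% of genes were called. The 3 richest had 125, 64 and 32 Tagln UMIs in cells of 128471, 110115 and 128832 UMIs.

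Platelet-like cells, 11 in WT and 7 in KO, had the highest Myl9 level of any class, 69 and 28 UMIs or 4762 and 4481 CPM. Tpm2 was at 1242 and 1120 and Tpm1 at 621 and 640, on at most 18 UMIs each. Acta2, Cnn1 and Myh11 had no UMI there, and Actg2 and Tagln had none in WT and 1 each in KO, in cells with median depths of 926 and 829 UMIs.

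Neutrophil-like cells carried Acta2 above the level of other blood cells. They had 71 Acta2 UMIs in WT and 75 in KO, 19.9 and 20.3 CPM, against 3.70 and 2.31 in B-like cells. The UMIs lay in 57 of 1191 WT cells (4.79%) and 65 of 997 KO cells (6.52%), with at most 2 and 3 in a cell. After thinning to 1000 UMIs the shares were 2.12% and 2.16%, against 0.280% and 0.191% in B-like cells, with median depths before thinning of 2318 and 2805 UMIs. Tagln in the same cells was at 4.75 and 6.78 CPM, close to the 6.17 and 4.75 of B-like cells.

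The pattern of each member over classes was compared with that of 15528 other genes, as Pearson's r of log2 levels over 26 points, 13 classes in each of the libraries. The points share libraries and differ in depth, so r is a description. Closest to Acta2 were Crispld2 (0.92), Pde3a (0.92) and Gm43091 (0.91), and among the closest to Actg2 were Susd2 (0.97) and Slco1c1 (0.94). Nearest to Myh11 were Htra3, Srpx2 and Barx1 (0.95 each), and to Myl9 Cavin3 (0.94), Tmem178 (0.93) and Col6a1 (0.91). Tpm1 was most like Atoh8, Mfge8 and Atp9a (0.95 each), and Tpm2 most like Mark1, Arvcf and Mmp11 (0.90 each). For Tagln the closest were Gm12963 (0.95), Shisa2 (0.95) and Rgs17 (0.94), and those for Cnn1 included Hspb2 (0.88) and Arvcf (0.87). Among the members, Tagln and Tpm2 were most alike (0.91), and Acta2 and Tpm1 least (0.47), with Acta2 and Myh11 at 0.85.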

How the data were processed

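The authors deposited raw counts of UMIs per gene and cell barcode, and the file headers name Cell Ranger 7.0.1, whereas the submitters' processing notes name Cell Ranger 3.1.0, Seurat and build mm10. The libraries used the Chromium 3′ v3 kit, per the labels. The use of intronic reads and of strand is not given in the sources used here. Scripts ran in Python 3.11.15 with numpy 2.4.6, scipy 1.17.1 and pandas 2.3.3.

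A cell was kept with 200 genes or more and no more than 20% of UMIs mitochondrial (413 WT and 149 KO barcodes failed). Classes came from marker lists with no clustering, and 8.68% of WT and 7.25% of KO cells had no class. A marker was raised at 1 UMI or more and at or above its share of UMIs over the library. Plain detection had been planned, but left only 105 WT and 91 KO mesenchymal-like cells, so this rule was chosen after seeing the data. So was letting the smooth muscle list lead a cell into the class. Doublets were treated only by leaving out mixed cells, and no doublet caller was run. Of the mesenchymal-like cells, 8 WT and 15 KO had exactly 3 markers raised, and 11 and 15 cells led by its list had 2 and no class.

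Counts were summed per class and library. Ratios had 1 count added to each sum, exact conditional intervals and no test, and list medians used genes with at least 20 UMIs. Intervals of shares were Clopper-Pearson. Thinning drew 1000 UMIs per cell. A count of 0 allows up to 3 counts, so Cnn1 and Actg2, at 29 and 38 UMIs in WT and 0 in KO portal fibroblast-like cells, were at least 7.56-fold and 9.90-fold lower in KO, with all WT UMIs in 1 cell. Programs were checked on simulated data. All 8 members were named, with the 10 most abundant other pathway genes and, per member, the 3 genes most alike over classes, some of which are not reported here. The members and lists were chosen with earlier results of these data known. Of the gene identifiers, 32235 of 32285 were found in GENCODE M21. Sequences are from RefSeq on GRCm38.p6.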

Additional observations from a re-analysis of the deposited data

Results flagged for a closer look

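For several members the KO over WT log2 ratio had opposite signs in different subsets of mesenchymal-like cells. With 1 library per genotype, none of these differences was tested. In stellate-like against smooth muscle-like cells the ratios were -0.10 and 0.48 for Tpm1, -0.38 and 0.59 for Tpm2, and -0.20 and 0.28 for the 8 members summed. Without the WT smooth muscle-like cell lowest in the members, the smooth muscle-like values were 0.08, 0.13 and -0.19, and that of Acta2 was -0.17. Without the KO cell richest in the members they were 0.19, 0.60 and 0.14, with 0.01 for Acta2 and -1.70 for Actg2.

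Portal fibroblast-like cells had negative ratios where smooth muscle-like cells had positive ones. The values were -1.24 against 0.31 for Acta2, -0.38 against 0.48 for Tpm1, -1.98 against 0.59 for Tpm2 and -2.54 against 1.32 for Myh11. For Actg2 they were -4.93 against 1.95, where the first depends on the 1 count added to 0 KO UMIs and the difference is at least 9.90-fold. Summed members gave -1.15 against 0.28. Myh11 also differed from stellate-like cells, at 0.72. Of the member UMIs of the 10 WT portal fibroblast-like cells, 808 of 956 came from 1 cell. Without it the ratios in portal fibroblast-like cells were 1.70 for Acta2, 1.30 for Tpm1, -0.42 for Tpm2 and 1.31 summed, and Myh11 had 0 UMIs in WT and 17 in KO.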

How the results depend on the processing

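No paired analysis was possible because each genotype has 1 library and no replicate number. In mesenchymal-like cells the members' median log2 ratio (-0.51), their summed ratio (-0.34) and the pathway median (0.06) depended on the processing. The members' median and summed ratio were -0.65 and -0.47 with median-of-ratios scaling, -0.050 and -0.085 as means per cell, -0.34 and -0.20 with cells thinned, -0.20 and -0.084 without the 5 richest cells, and -0.27 and -0.22 without the richest cell of each library. Without the richest WT cell alone the summed ratio was -0.15. They were -0.59 and -0.44 with mixed cells kept, and -0.21 and -0.14 without cells with 3 or more smooth muscle markers raised. A marker raised at 2 times its mean share gave a members' median of -0.46. Raised at any UMI, the 105 WT and 91 KO cells reversed both, to 0.15 and 0.16, and with mixed cells kept as well gave -0.57 and -0.41. The pathway median reversed to -0.074 with median-of-ratios scaling and was 0.14 thinned, 0.13 without the 5 richest cells, 0.11 without the richest, 0.040 with stricter cell filters, 0.029 with no filter on low counts and 0.082 at 2 times the mean share.

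Reversed single members were Acta2, at 0.10 as a mean per cell, 0.15 without the 5 richest cells, 0.40 without cells with 3 or more smooth muscle markers and 0.25 at any UMI. Tpm1 reversed to 0.17 thinned and 0.15 at any UMI, Tpm2 to 0.14 at any UMI, and Myh11 to -0.14 with mixed cells kept. Actg2, whose interval included 0 (-0.55), changed sign to 0.31 as a mean per cell, 0.14 thinned and 1.26 without the richest WT cell. Without the richest WT cell Acta2 was 0.069 in the class, and in portal fibroblast-like cells Acta2 was 1.70, Tagln 1.57, Tpm1 1.30, the sum 1.31 and Myh11 4.30, the last with 1 count added to 0 WT UMIs. In smooth muscle-like cells, Acta2 and the summed ratio reversed to -0.17 and -0.19 without the lowest WT cell. Without the 2 lowest they were -0.45 each, Tpm1 was -0.18 and Tpm2 -0.043, while Myh11 was 0.69, Tagln -1.20 and Myl9 -1.20. Without the richest KO cell Actg2 reversed to -1.70. Without that and the lowest WT cell, Actg2 was -2.18, Acta2 -0.47, Tpm1 -0.21 and the sum -0.32.

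The share of member UMIs held by the class (38.2% in WT, 34.6% in KO) was 39.6% and 37.8% thinned, 46.7% and 40.5% with mixed cells kept, 39.8% in WT with 5 markers required, and 32.9% and 29.5% when the smooth muscle list could not lead a cell into the class. It was 40.6% and 38.7% at 2 times the mean share, 7.49% and 7.05% at any UMI, and 42.3% and 37.8% with mixed cells kept as well. The share in the 5 richest cells (32.0% and 18.4%) was 27.0% in KO thinned, 16.7% in KO with mixed cells kept, 30.6% in WT with 5 markers required, 30.8% and 19.9% without the smooth muscle list, 30.1% and 17.5% at 2 times the mean share, 47.7% and 51.8% at any UMI, and 28.9% in WT with mixed cells kept as well. The settings on raised markers, on the smooth muscle list and on the richest and lowest cells were added after seeing the data. The cause of these shifts was not tested.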

Other observations

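Mixed cells, left out of every class, also differed between libraries in the scarce members. Cnn1 had 72 UMIs in 1129 WT and 8 in 1637 KO mixed cells, and Actg2 had 71 and 10. Acta2 was at 30.9 CPM in WT and 10.8 in KO mixed cells, and Myh11 at 21.7 and 5.85. A single WT mixed cell with 24212 UMIs, led by the mesenchymal list, held 615 member UMIs, of which 136 were Myh11, 106 Acta2, 54 Cnn1 and 46 Actg2. With the portal fibroblast-like cell described above, the 2 WT cells richest in the members held 54 and 29 of the 143 Cnn1 UMIs of that library.

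All 8 members were seen together in 7 WT mesenchymal-like cells and in 1 KO cell. Just below that cut the order was the reverse. Exactly 7 members were seen in 4 WT and 11 KO cells, and exactly 6 in 9 and 23. The cut at 8 needs the scarce Cnn1 and Actg2. The 5 richest cells of each member amounted to 10 distinct cells in WT and 17 in KO.

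In KO, a mixed cell of 65930 UMIs led by the cholangiocyte list held 246 Tagln UMIs, more than the 45 of all 202 KO cholangiocyte-like cells.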
